A study of Mus musculus with 10 samples.

Results

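Transcripts of the mucin genes were compared between 5 control and 5 Villin-WlscKO colon tumors. The genes were chosen by name: Muc1, Muc2, Muc3, Muc4, Muc5b, Muc6, Muc13 and Muc20, of which 7 had values among the 16875 gene names of the table, while Muc5b was not analysed here. Muc2 and Muc6 are secreted mucins and the other 5 are membrane mucins. All tumors were macrodissected from colons of mice that had been given azoxymethane (AOM), a carcinogen, and then 3 cycles of 2% dextran sodium sulfate (DSS), which injures the colon epithelium. Control tumors carried floxed alleles of Wls (Wls flox/flox), the gene of the cargo receptor that Wnt proteins need for secretion. Villin-WlscKO tumors carried the same floxed alleles together with Villin-Cre ERT2, a tamoxifen-dependent Cre recombinase under a promoter active in intestinal epithelium, so that stromal cells retained Wls. Tamoxifen was injected 5 times at 80 mg/kg, starting 30 days before tumor collection, and the study describes its controls as tumors without tamoxifen unless otherwise stated. Mice were of the C57BL/6 background, preferentially female, and 6 to 10 weeks old at the start. How many mice gave the tumors is not stated, so n counts tumors.

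Mucins are large glycoproteins whose serine- and threonine-rich stretches carry dense O-linked sugars. Secreted gel-forming mucins are packed into granules of goblet cells and unfold into the mucus that separates bacteria from the epithelium, whereas membrane mucins are anchored in the apical surface of epithelial cells and form the glycocalyx. In the colon, MUC2 is the main gel-forming mucin, while MUC6 is known from the mucous glands of the stomach and duodenum.

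A total of 4 mucin transcripts were higher in Villin-WlscKO tumors and 1 was lower. Muc2, Muc4, Muc1 and Muc20 rose and Muc6 fell, while Muc13 and Muc3 did not pass the threshold. These are 5 of 7 mucin genes at an adjusted p under 0.05 in limma, in a comparison in which 10.9% of the 16757 tested genes passed, 6.12% as higher and 4.75% as lower. The 5 Villin-WlscKO tumors lay above all 5 control tumors for the 4 mucins that rose, where 5.33% of tested genes had groups that did not overlap in this direction, 4.76% in the other and 10.1% in either. The median log2 change, the difference of mean log2(FPKM + 1) between Villin-WlscKO and control tumors, was 1.01 over the 7 mucin genes and 0.01 over all tested genes.

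Before the mucins, the tumors were checked against their labels. Wls had a mean of 72.9 ± 7.06 FPKM in control tumors and of 6.37 ± 4.89 FPKM after Cre induction (SD, n = 5 each), which is a log2 change of -3.59 (limma adjusted p = 0.000337). Epcam, which marks epithelial cells, was at 923 to 1043 FPKM in control and 911 to 1321 FPKM in Villin-WlscKO tumors. Xist was at most 0.420 FPKM in control tumors and at least 439 FPKM in Villin-WlscKO tumors, and the Y-linked gene Eif2s3y went the other way, so that sex, tamoxifen and genotype cannot be told apart in any comparison below. Villin-WlscKO tumors 2 and 3 stood apart from the rest: the squamous keratin Krt5 was at 469.5 and 669 FPKM there and at most 0.315 FPKM in each other tumor. Trp63, the regulator of stratified epithelia, was at 16.3 and 17.0 FPKM in the same tumors and at most 0.0649 FPKM elsewhere. The mucin results were therefore also computed without these tumors. In bulk tissue, fewer cells of a type and less RNA per cell cannot be told apart.

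The 250 bases upstream of the annotated start are shown for Muc2 and Muc4, the mucins with the largest rise of each class, and for Muc6, the mucin that fell. They are RefSeq sequences of GRCm38.p6, printed 5′ to 3′ on the strand of the gene, and 7 of the 8 mucin genes had such an entry (Muc5b had none). Capitals mark matches to the motifs searched. Muc2 spans chr7:141690090-141690339 on the plus strand, Muc4 spans chr16:32735636-32735885 on the plus strand and Muc6 spans chr7:141655394-141655643 on the minus strand.
Muc2: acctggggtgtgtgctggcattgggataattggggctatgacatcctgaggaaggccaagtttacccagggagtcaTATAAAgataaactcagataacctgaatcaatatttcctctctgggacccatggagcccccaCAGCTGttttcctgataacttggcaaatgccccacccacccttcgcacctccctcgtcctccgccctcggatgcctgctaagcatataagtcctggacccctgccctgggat
Muc4: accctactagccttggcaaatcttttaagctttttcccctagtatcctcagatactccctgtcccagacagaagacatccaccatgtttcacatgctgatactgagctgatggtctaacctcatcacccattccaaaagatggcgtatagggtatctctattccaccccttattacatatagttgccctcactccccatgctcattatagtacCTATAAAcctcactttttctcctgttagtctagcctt
Muc6: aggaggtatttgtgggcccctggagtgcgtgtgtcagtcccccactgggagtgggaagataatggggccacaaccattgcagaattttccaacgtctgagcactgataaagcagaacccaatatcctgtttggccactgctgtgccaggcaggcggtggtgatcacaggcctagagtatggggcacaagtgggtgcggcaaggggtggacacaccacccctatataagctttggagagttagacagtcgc

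A total of 6 motifs were searched on both strands. They were the TCF/LEF motif CTTTGAT of Wnt-driven transcription, found in 3.21% of 32841 upstream windows of the same length, the CDX motif TTTATNG (9.81%), the E-box CAGCTG (13.0%), the STAT motif TTCNNNGAA (7.02%), the interferon response motif TTTCNNTTT (9.38%) and the TATA box TATAAA (12.4%). The Muc2 window held the E-box 112 to 107 bases before the start and TATAAA 174 to 169 bases before it. The Muc4 window held the CDX motif on the reverse strand, as CTATAAA 37 to 31 bases before the start, and this match overlaps a TATA box at 36 to 31 bases. In the Muc6 window none of the motifs was found. Only the letters given were searched, so the tataag printed near the end of the Muc2 and Muc6 windows was not marked. No mucin window held the TCF/LEF or the interferon response motif. A match is a description of the letters in the window, not evidence of binding.

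Among the secreted mucins, Muc2 rose and Muc6 fell. Muc2 was at 51.0, 114, 169, 60.8 and 153 FPKM in control tumors 1 to 5 and at 545, 248, 399, 461 and 549 FPKM in Villin-WlscKO tumors 1 to 5. The lowest Villin-WlscKO tumor, tumor 2, lay above the highest control tumor, tumor 3. Means were 109 ± 53.0 FPKM (SD, n = 5) and 441 ± 124 FPKM (SD, n = 5), a ratio of 4.02, and the log2 change was 2.10 (95% interval 1.31 to 2.89, limma adjusted p = 0.0047, exact two-sided permutation p = 0.00794). With 5 against 5 tumors there are 252 arrangements, and 0.00794 is the smallest p that the permutation test can give. Muc2 is annotated at chr7:141690340-141754693 in GENCODE M21 on GRCm38. The study's transcript assembly split it into more than 1 locus, so its FPKM may stand for only part of the gene.

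Muc6 ran in the opposite direction at a far lower level. It was at 7.81, 7.75, 3.14, 5.23 and 4.16 FPKM in control tumors 1 to 5 and at 2.83, 1.64, 1.54, 0.477 and 3.17 FPKM in Villin-WlscKO tumors 1 to 5. The groups overlapped through a single pair, since Villin-WlscKO tumor 5 lay just above control tumor 3, and the other 4 tumors of that group lay under the whole control range. Muc6 fell from 5.62 ± 2.11 to 1.93 ± 1.08 FPKM (SD, n = 5 each), by 1.20 on the log2 scale (95% interval -1.88 to -0.52, limma adjusted p = 0.031, exact permutation p = 0.0159). Without Villin-WlscKO tumors 2 and 3 the log2 change was -1.15 and no longer passed (limma adjusted p = 0.127). The call was also lost when any of control tumors 1, 2 and 4 or Villin-WlscKO tumors 2 and 3 was left out, with limma adjusted p of at most 0.0768.

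Muc6 (chr7:141633456-141655319, minus strand) and Muc2 (plus strand) are neighbours in the mucin cluster of chromosome 7. Their annotated starts face each other across a gap of 35021 bases. Their ratio summarises the opposite directions within each tumor. The FPKM of Muc2 over that of Muc6 lay between 6.53 and 53.8 in control tumors, with a median of 14.6, and between 152 and 967 in Villin-WlscKO tumors, with a median of 193. The groups did not overlap in this ratio, which restates the changes of both genes and is no separate evidence. At the edges of the cluster, Ap2a2, an adaptor subunit of clathrin coats that lies 445 bases from Muc6, was 17.1 ± 1.13 FPKM in control and 18.8 ± 0.928 FPKM in the Villin-WlscKO group (SD, n = 5 each), and its change did not pass (limma adjusted p = 0.263). Tollip, an adaptor of Toll-like receptor signaling beyond Muc5b, fell by 0.29 on the log2 scale (limma adjusted p = 0.0105).

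**Figure D1:**
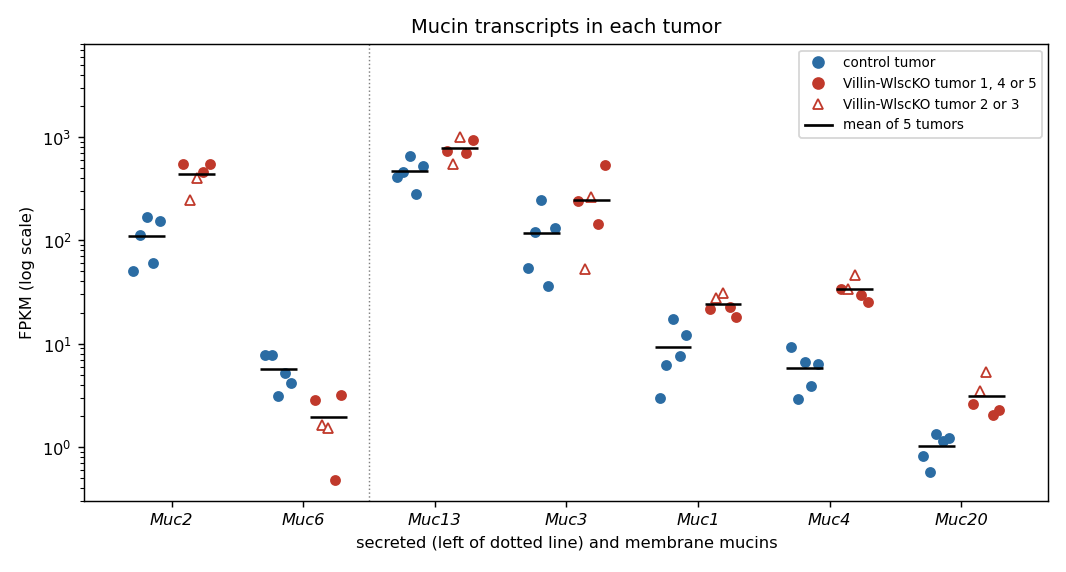
FPKM of each mucin transcript in each of the 10 tumors, on a log axis, for the secreted mucins left of the dotted line and the membrane mucins right of it; blue points are control tumors, red points Villin-WlscKO tumors, open triangles the Villin-WlscKO tumors 2 and 3 with squamous keratins, and black bars means of 5 tumors. The groups do not overlap for Muc2, Muc1, Muc4 and Muc20, and Muc6 is the transcript whose Villin-WlscKO mean lies below its control mean.

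Of the 5 membrane mucins, 3 rose and 2 did not pass, and each had a higher mean in Villin-WlscKO tumors. Muc4, a large membrane mucin that can associate with the receptor ErbB2, had the largest change of all members. It was at 9.32, 2.92, 6.65, 3.90 and 6.40 FPKM in control tumors 1 to 5 and at 33.8, 33.6, 45.9, 29.3 and 25.2 FPKM in Villin-WlscKO tumors 1 to 5. Every Villin-WlscKO tumor was well above the highest control tumor, tumor 1. The means of 5.84 ± 2.52 and 33.6 ± 7.73 FPKM (SD, n = 5 each) differed 5.75-fold, with a log2 change of 2.39 (95% interval 1.83 to 2.96, limma adjusted p = 0.000292, exact permutation p = 0.00794).

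Muc1, a membrane mucin of many glandular epithelia, was at 2.99, 6.15, 17.4, 7.56 and 12.2 FPKM in control tumors 1 to 5 and at 21.5, 27.4, 31.2, 22.9 and 18.0 FPKM in Villin-WlscKO tumors 1 to 5. The gap between the groups was narrow, from 17.4 FPKM in control tumor 3 to 18.0 FPKM in Villin-WlscKO tumor 5. The log2 change was 1.46 (95% interval 0.67 to 2.25, limma adjusted p = 0.0259), with means of 9.27 ± 5.63 and 24.2 ± 5.18 FPKM (SD, n = 5 each). The highest levels were in Villin-WlscKO tumors 2 and 3, and without them the log2 change was 1.27 and no longer passed (limma adjusted p = 0.130). Leaving out any of control tumors 2 and 4 or Villin-WlscKO tumors 2 and 3 also lost the call, with limma adjusted p of at most 0.0655. Of the neighbours on chromosome 3, Trim46, which lies 796 bases away and encodes a microtubule-organizing protein, was at 3.83 ± 2.08 and 7.48 ± 2.96 FPKM (SD, n = 5 each) and did not pass (limma adjusted p = 0.160). Mtx1 on the other side did not pass either (log2 change 0.17, limma adjusted p = 0.0881), whereas Krtcap2, a subunit of the N-glycosylation complex that lies beyond Trim46 and was named after its values were seen, rose by a log2 change of 0.59 (limma adjusted p = 0.0302).

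Muc20 was the least abundant membrane mucin. It was at 0.819, 0.573, 1.33, 1.13 and 1.23 FPKM in control tumors 1 to 5 and at 2.58, 3.48, 5.25, 2.03 and 2.26 FPKM in Villin-WlscKO tumors 1 to 5. The groups did not overlap, and the highest level was in Villin-WlscKO tumor 3. The log2 change was 0.99 (95% interval 0.54 to 1.45, limma adjusted p = 0.0127), while the means of 1.02 ± 0.312 and 3.12 ± 1.31 FPKM (SD, n = 5 each) differed 3.07-fold, because the added 1 compresses changes at such levels.

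Muc13 and Muc3 were the abundant membrane mucins. Muc13, the most highly expressed mucin gene in both groups, was at 415, 463, 655, 279.5 and 525 FPKM in control tumors 1 to 5 and at 733, 546, 1010.2, 710 and 934 FPKM in Villin-WlscKO tumors 1 to 5. Villin-WlscKO tumor 2 fell within the control range and the other 4 lay above every control tumor. The means were 468 ± 138 and 786 ± 186 FPKM (SD, n = 5 each), and the log2 change of 0.77 (95% interval 0.26 to 1.28) did not pass (limma adjusted p = 0.0594). Its exact permutation p was 0.0159, the same as that of Muc6. It passed without control tumor 3 (0.91, limma adjusted p = 0.0293) or without Villin-WlscKO tumor 2 (0.89, limma adjusted p = 0.0385).

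Muc3, a membrane mucin of the enterocyte brush border, varied most. It was at 54.1, 120, 248, 36.0 and 132 FPKM in control tumors 1 to 5 and at 241, 53.0, 261, 145 and 533 FPKM in Villin-WlscKO tumors 1 to 5. The groups overlapped over most of their range, with Villin-WlscKO tumor 2 below 4 of the control tumors. The log2 change of 1.01 had a 95% interval from -0.42 to 2.43 and did not pass (limma adjusted p = 0.364), with means of 118 ± 83.7 and 247 ± 180 FPKM (SD, n = 5 each). The coefficient of variation of Muc3 was 70.9% in control and 73.1% in Villin-WlscKO tumors, against 29.6% and 23.7% for Muc13. A change of the size seen for Muc2 therefore lies within the interval for Muc3.

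**Figure D2:**
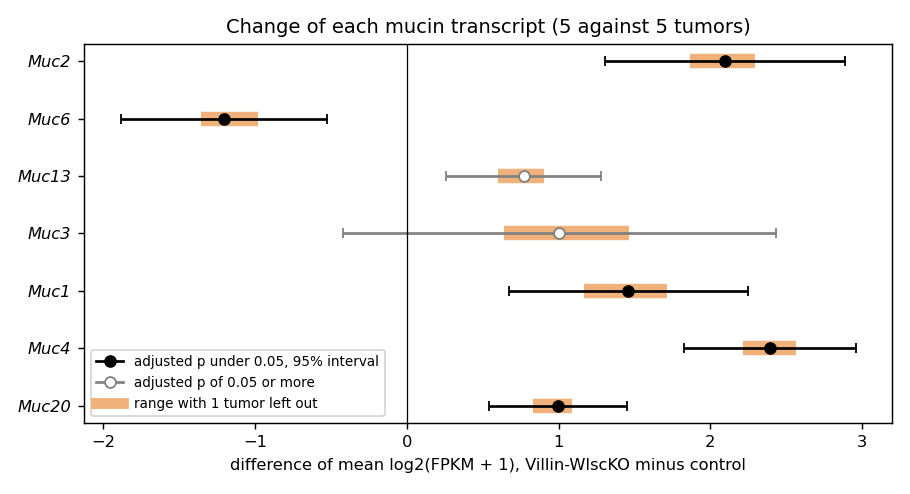
Difference of mean log2(FPKM + 1) between 5 Villin-WlscKO and 5 control tumors for each mucin transcript, with its 95% interval as a line and the range of values with 1 tumor left out as an orange bar; filled points have an adjusted p under 0.05. Muc4 at 2.39 and Muc2 at 2.10 are farthest to the right, Muc6 at -1.20 lies left of 0, and only the interval of Muc3 includes 0.

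The secreted and membrane classes were set against each other within each tumor, as the mean log2(FPKM + 1) of Muc2 and Muc6 minus that of the 5 membrane mucins. This difference was 0.20 ± 0.42 (SD, n = 5) in control and -0.68 ± 0.40 (SD, n = 5) in Villin-WlscKO tumors. It ranged from -0.41 to 0.74 in control and from -1.25 to -0.26 in Villin-WlscKO tumors, with control tumor 3 within the range of the other group. The class mean hides the opposite moves of Muc2 and Muc6, so the classes did not divide the mucins by direction. Against Muc13 as a common reference, the FPKM of Muc2 lay between 0.123 and 0.292 of that of Muc13 in control tumors and between 0.395 and 0.744 in Villin-WlscKO tumors. For Muc4 the same ratio was 0.00630 to 0.0225 in control and 0.0270 to 0.0616 in Villin-WlscKO tumors. Neither ratio overlapped between the groups.

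The order of the levels differed between the groups. FPKM is per length of transcript, which allows levels of different genes to be set side by side, but the places of Muc2 and Muc3 rest on values that may stand for part of a gene and for a gene together with Gm3054. In control tumors Muc13 was highest, followed by Muc3 and Muc2, which were not separated (Muc3 was above Muc2 in 3 of 5 tumors). Muc1, Muc4 and Muc6 formed a lower tier with overlapping ranges, and Muc20 was below all of them. In Villin-WlscKO tumors Muc13 was above Muc2, and Muc2 above Muc3, in 5 of 5 tumors each, although both pairs of ranges overlapped. Muc4 was above Muc1 in 5 of 5 Villin-WlscKO tumors, and Muc6 shared the lowest place with Muc20, which was higher in 3 of 5 tumors.

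The order of the tumors was shared by several mucins within the control group. Control tumor 3 was highest for 5 of 7 mucin genes (Muc1, Muc2, Muc3, Muc13 and Muc20) and lowest for Muc6. Among Villin-WlscKO tumors, tumor 3 was highest for Muc1, Muc4, Muc13 and Muc20, and tumor 5 for Muc2, Muc3 and Muc6. Villin-WlscKO tumor 2 was lowest for Muc2, Muc3 and Muc13. Muc2 varied less among Villin-WlscKO than among control tumors, with coefficients of variation of 28.2% and 48.4%, and so did Muc1, with 21.4% and 60.8%. Muc6 went the other way, with 56.1% among Villin-WlscKO and 37.5% among control tumors.

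Muc4 and Muc20 overlap on chromosome 16, which bears on how far their rises are separate measurements. Muc4 (chr16:32735886-32782391, plus strand) and Muc20 (chr16:32777419-32797435, minus strand) share 627 exonic bases, 5.33% of the exonic bases of Muc4 and 15.6% of those of Muc20. Among stretches of 50 bases, 482 of the 3978 in Muc20 transcripts also occur on the opposite strand in Muc4 transcripts. The libraries were stranded, but whether strand was used in quantification is not stated, and the study's assembly had a locus that joined the genes. The deposited values of the pair nevertheless differed: Muc4 over Muc20 was 3.44 to 11.4 in control and 8.73 to 14.5 in Villin-WlscKO tumors. How reads of the shared stretch were assigned cannot be told from the deposited values, and their part in the rise of either gene was not tested.

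Muc3 and Muc13 also share positions or values with other genes. All 10 values of Muc3 (chr5:137134922-137149322, minus strand) were identical to those of the noncoding RNA Gm3054, so its FPKM may come from both. In GENCODE M21, however, Muc3 and Gm3054 share 0 exonic bases. The RefSeq window upstream of Muc3, chr5:137166047-137166296, lies beyond the GENCODE span, so the annotations differ on where Muc3 starts. Muc13 (chr16:33794037-33819934, plus strand) overlaps the antisense RNA Gm15657 in 184 exonic bases. Gm15657 rose from 4.14 ± 2.18 to 9.10 ± 2.03 FPKM (SD, n = 5 each), with a log2 change of 1.03 (limma adjusted p = 0.0205). Because Gm15657 shared all of its values with Gm15658, its reads are not assigned to a single gene either. No stretch of 50 bases of Muc1, Muc2, Muc3 or Muc6 occurred in transcripts of another gene.

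Other mucin and mucin-like names were read beside the members. Of 18 such names, 7 were in the table and 1 passed, Muc3a, which lies 59491 bases from Muc3. Muc3a was at 1.07, 4.23, 3.59, 1.46 and 3.68 FPKM in control tumors 1 to 5 and at 8.74, 9.03, 8.80, 9.36 and 12.7 FPKM in Villin-WlscKO tumors 1 to 5. The groups did not overlap, and Muc3a rose by a log2 change of 1.58 (SE 0.26, limma adjusted p = 0.00413). The membrane mucin Muc16 was at 1.76 ± 1.04 FPKM in control and 0.847 ± 0.473 FPKM in the Villin-WlscKO group (SD, n = 5 each), with overlapping groups (limma adjusted p = 0.232). Emcn, Cd164, Mcam, Parm1 and Ovgp1 had log2 changes between -0.03 and 0.31 and did not pass, and the values of Ovgp1 were shared with Wdr77.

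The genes with the most similar profile differed from mucin to mucin. Likeness was the mean absolute difference of log2(FPKM + 1) over the 10 tumors, after each gene was centred on its own mean, and it includes the difference between the groups. The gene nearest to Muc2 was Agr2, at 0.20, a disulfide isomerase of the endoplasmic reticulum that MUC2 folding requires, followed by Cd177 at 0.25. The FPKM of Muc2 over Agr2 was 0.308 to 0.508 in control and 0.344 to 0.530 in Villin-WlscKO tumors. Agr2 was picked for its likeness to Muc2 in these same tumors, so the overlap of this ratio largely follows from that choice. Nearest to Muc4 were Gbp5 (0.29) and Zbp1 (0.32), both known as interferon-induced genes. Gbp5 was at 0.967 ± 0.491 FPKM in control and 11.7 ± 3.28 FPKM in the Villin-WlscKO group (SD, n = 5 each). Nearest to Muc6 was Upk3a (0.17), a uroplakin, at 7.80 ± 2.05 and 2.63 ± 1.26 FPKM (SD, n = 5 each), followed by the phospholipid flippase Atp10a (0.21).

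For Muc3 the nearest gene was Slc26a3 (0.29), the chloride and bicarbonate exchanger of surface colonocytes, which ranged from 1.17 to 14.7 FPKM in control and from 1.01 to 30.01 FPKM in Villin-WlscKO tumors. Like Muc3, Slc26a3 was lowest in Villin-WlscKO tumor 2 and highest in tumor 5 of that group. The nearest genes of Muc13 were the kinase Mapk13 (0.12) and Slc35a1 (0.12), the transporter that brings activated sialic acid into the Golgi. Nearest to Muc1 was the stress-response gene Nupr1 (0.23), and nearest to Muc20 were Plekhn1 and Parp9 (both 0.16). These values describe 10 tumors of which 5 share a genotype. The genes were picked from all those tested for their likeness in these same tumors, so shared high and low tumors are no separate evidence.

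**Figure D3:**
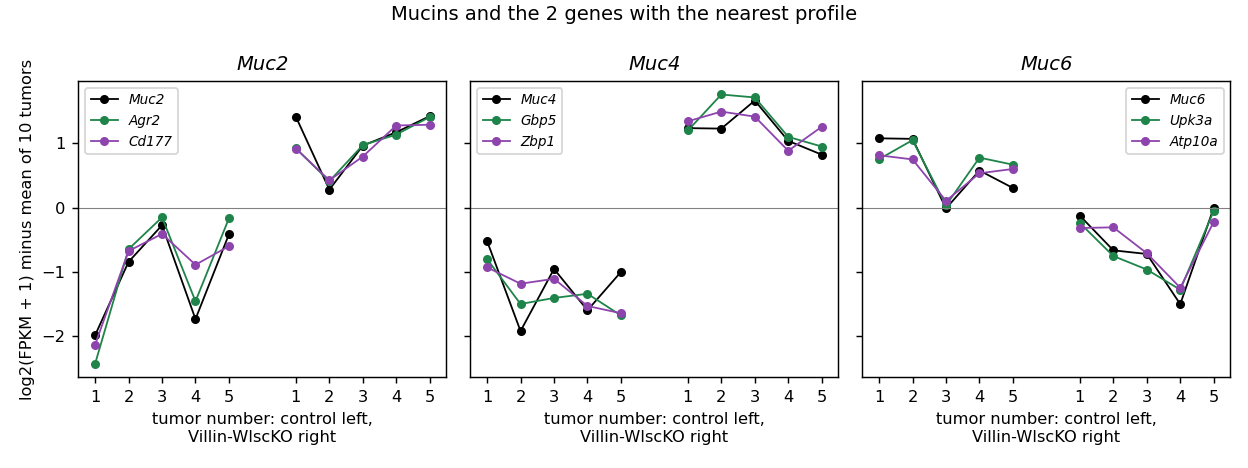
Profiles of Muc2, Muc4 and Muc6 (black) and the 2 genes nearest to each over the 5 control tumors (left) and the 5 Villin-WlscKO tumors (right), as log2(FPKM + 1) minus the mean over 10 tumors. Control tumors 1 and 4 and Villin-WlscKO tumor 2 are the lowest of their groups in both Muc2 and Agr2. The order of Villin-WlscKO tumors 1, 3 and 4 differs between these genes. Muc6 and Upk3a are both lowest in Villin-WlscKO tumor 4.

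Genes that fold, pack or accompany mucins in goblet cells mostly had higher means in Villin-WlscKO tumors. Of 19 mucus granule and mucus layer genes tested, 7 rose, 0 fell and 12 did not pass, and the median log2 change was 0.77. Retnlb, an antibacterial goblet cell protein, was at 6.73 ± 9.65 and 52.9 ± 21.2 FPKM (SD, n = 5 each), a log2 change of 3.50 (limma adjusted p = 0.011). Spink4, a goblet cell peptide and the most abundant gene of the list, rose from 6063 ± 3355 to 21078 ± 1747 FPKM (SD, n = 5 each; log2 change 2.04, limma adjusted p = 0.0123). Agr2 rose from 324 ± 173 to 1091 ± 262 FPKM (SD, n = 5 each; log2 change 1.94, limma adjusted p = 0.0142). The others that rose were Nlrp6, Slc12a2, Galnt12 and Sytl2. Without Villin-WlscKO tumors 2 and 3, Retnlb and Spink4 no longer passed and Cftr did, so that 6 genes of the list were higher.

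Several classical companions of Muc2 in goblet cells did not pass. The log2 change was 1.22 for the trefoil peptide Tff3 (limma adjusted p = 0.0746), 1.10 for Fcgbp, a mucus-bound protein (0.0993), and 1.05 for the lectin-like Zg16 (0.350). Fcgbp shared all of its values with 9530053A07Rik. For Clca1, a protease of the mucus layer, it was -0.24 (limma adjusted p = 0.787), at 141 ± 51.4 FPKM in control and 128 ± 67.0 FPKM in the Villin-WlscKO group (SD, n = 5 each). Zg16 and Clca1 were both lowest in Villin-WlscKO tumor 2 within that group, as was Muc2. Tff3, Fcgbp and Zg16 had higher means in Villin-WlscKO tumors, with 95% intervals of 0.36 to 2.09, 0.25 to 1.95 and -0.39 to 2.48, and whether their changes differ from that of Muc2 was not tested.

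Of 9 transcription factors of the secretory lineage, 2 rose, 1 fell and 6 did not pass, with a median log2 change of 0.81. Spdef, which drives goblet cell maturation, rose from 8.78 ± 5.26 to 26.6 ± 5.31 FPKM (SD, n = 5 each; log2 change 1.71, limma adjusted p = 0.0232). Gfi1, which acts downstream of Atoh1, had a log2 change of 1.05 (limma adjusted p = 0.00673). Foxa2, a forkhead factor of endoderm, fell by 0.73 on the log2 scale (limma adjusted p = 0.0118). Atoh1, the switch to the secretory fate, had groups that did not overlap but did not pass (log2 change 1.29, limma adjusted p = 0.073). Without Villin-WlscKO tumors 2 and 3, 1 of these factors passed, Gfi1.

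Of 19 tested enzymes that build O-linked sugars, 6 rose, 0 fell and 13 did not pass, with a median log2 change of 0.58. B3gnt3, which extends core 1 sugars, had the largest log2 change among the 6 that rose, 0.84 (limma adjusted p = 0.00462), at 53.1 ± 9.03 and 95.9 ± 16.0 FPKM (SD, n = 5 each). B3gnt6, the core 3 synthase of colonic mucin sugars, was at 0.296 ± 0.0714 and 1.28 ± 0.340 FPKM (SD, n = 5 each; log2 change 0.80, limma adjusted p = 0.00276). Galnt7, C1galt1, Galnt10 and Galnt3 rose as well. Among 7 tested genes of gastric mucous and pit cells, 0 passed in limma, and the median log2 change was 0.31. The most abundant, Vsig1, was at 23.4 ± 4.36 and 32.1 ± 6.42 FPKM (SD, n = 5 each, limma adjusted p = 0.106). Tff2, Gkn2, Pgc, Cldn18 and Aqp5 were not analysed here.

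**Figure D4:**
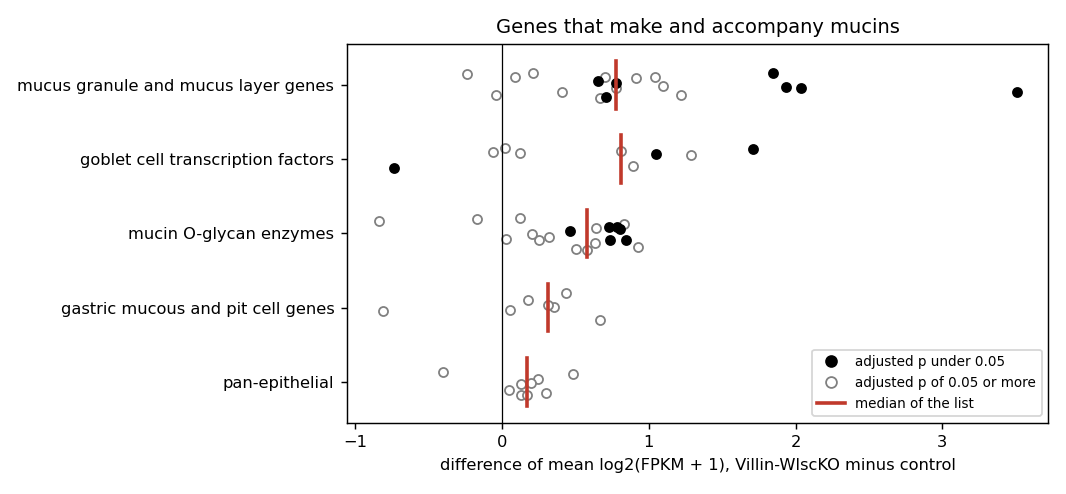
Difference of mean log2(FPKM + 1) between Villin-WlscKO and control tumors for each gene of 4 lists related to mucins and of the pan-epithelial list; filled points have an adjusted p under 0.05 and red bars are list medians. The medians are 0.77, 0.81, 0.58, 0.31 and 0.17 from top to bottom, and Retnlb is the point farthest to the right, at 3.50.

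Markers of other cells were read beside these results. Of 9 pan-epithelial genes 0 passed in limma, their median log2 change was 0.17, and their summed level was 6692 to 9454 FPKM in control and 8066 to 10026 FPKM in Villin-WlscKO tumors. The most abundant of them, Krt19, had means of 3027 and 3504 FPKM. It shared all of its values with Krt13 and Krt17, so its part of the sum is not assigned to a single gene. Of 12 colonocyte genes, 2 passed as higher (Krt20 and Guca2b), and the median log2 change was 0.77. Means were higher for 9 of them and lower for Cyp2c55 (log2 change -1.73), Car2 (-0.51) and Slc37a2 (-0.13), which did not pass. Over all tested genes, 6.12% passed as higher. Of 11 squamous genes, 2 rose (Sprr1a and Ly6d), with summed levels of 158 to 433 FPKM in control and 329 to 2233 FPKM in Villin-WlscKO tumors, and with Krt5 at 0 in control tumor 2 and Trp63 at 0 in control tumors 1 and 4 and Villin-WlscKO tumor 5. Of 9 leukocyte genes, 2 passed as higher, Cd3e and Cd8a, with Villin-WlscKO means of 1.10 and 1.04 FPKM. The list summed to 100.2 to 421 FPKM in control and 275 to 790 FPKM in Villin-WlscKO tumors. Its most abundant gene, S100a8, was at 143 ± 84.3 and 331 ± 135 FPKM (SD, n = 5 each) and did not pass (limma adjusted p = 0.0773). Means were higher for 8 of the genes and lower for 1, with log2 changes of -0.006 for Adgre1, 0.05 for Csf1r and 0.11 for Itgam. Fibroblast, smooth muscle and endothelial lists had 0 genes past the threshold in limma and medians of 0.11, 0.34 and 0.01. The part of these cells in the mucin levels was not tested. Muc2, Muc4 and Muc20 passed without Villin-WlscKO tumors 2 and 3 as well.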

How the data were processed

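Stranded mRNA libraries of 5 control and 5 Villin-WlscKO tumors of the colon were sequenced. The authors used FastQC for read quality, TopHat2 2.1.1 for mapping to GRCm38.p5 and Cufflinks 2.2.1 with Cuffdiff for quantification, and deposited FPKM (fragments scaled by transcript length and by the number mapped), 1 value per gene name and tumor. All columns were assigned by their labels, and 0 columns had no tumor. The FPKM sums were 1265992 to 1533885 in control and 1207683 to 1341494 in Villin-WlscKO tumors. Read numbers are unknown, so precision rests on the spread between tumors, and p-values measure only that spread.

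For the comparison of the groups, log2(FPKM + 1) was fitted with limma 3.58.1 (R 4.3.3), two-sided, over 16757 genes whose mean FPKM was 0.5 or more, with an eBayes trend, no covariate and Benjamini-Hochberg adjustment over all genes tested. The pseudocount of 1 understates changes of low genes. All 7 mucin genes with values passed the filter. Exact permutation tests over tumors, counts and figures were made in Python 3.11.15 (scipy 1.17.1, numpy 2.4.6, pandas 2.3.3, matplotlib 3.10.9). The fit was tested on simulated data for Villin-WlscKO against control over 16757 genes: 74 of 100 genes changed by 1 on the log2 scale and 96 of 100 changed by 2 were recovered, with 12 false calls. The simulated log2 values were normal, independent between genes and of equal spread in both groups. They held no correlated genes and no tumors that stand apart, so these rates need not hold for the real tumors.

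The members, gene lists and alternatives were chosen with earlier results of these data known, so that no test over a list was made. Named genes are the members, the 2 genes nearest in profile to each, the 3 genes with the largest change past the threshold and the most abundant gene of each list, the other mucin names, overlapping and neighbouring genes, label checks and cell type markers. Exceptions named after their values were seen are the remaining genes of a list that passed. Positions are from GENCODE M21 and upstream windows from RefSeq (GRCm38.p6). Alternatives were other pseudocounts, scalings, filters, weights and variance models, a replicate block, each tumor left out, and Villin-WlscKO tumors 2 and 3 left out together.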

Additional observations from a re-analysis of the deposited data

Results flagged for a closer look

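Among 28 groups of 5 tumors, 2 for each of the 7 mucin genes and the 7 other mucin names, 1 held a tumor far from the rest. Muc3a was at 12.7 FPKM in Villin-WlscKO tumor 5, and the gap to the next tumor was 0.843 of the range of the group. Chance alone is taken to flag about 1 in 20 groups at this limit, a rate that was not computed for these values.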

How the results depend on the processing

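Muc2, Muc4 and Muc20 kept their direction and passed under every alternative fit that tested them, Muc3 passed in none, and no mucin changed direction. Without Villin-WlscKO tumors 2 and 3, Muc1 (1.27) and Muc6 (-1.15) no longer passed, 3 mucin genes passed (Muc2, Muc4 and Muc20), and 1092 of all genes did. In that fit, chosen for lists after seeing the data, 1 goblet cell transcription factor and 0 squamous genes passed in limma, 6 mucus granule and mucus layer genes passed without Retnlb and Spink4 but with Cftr, and 8 enzymes of O-linked sugars passed. Muc13 passed after each tumor was rescaled to an FPKM sum of 1000000 (log2 change 0.87). At a mean FPKM of at least 5, 3 mucin genes passed, since Muc6 and Muc20 were filtered out. The log2 ratio of mean FPKM of Muc20 was 1.62, as no pseudocount enters it. With 1 tumor left out, log2 changes ranged from 1.17 to 1.72 for Muc1, 1.86 to 2.29 for Muc2, 0.64 to 1.47 for Muc3, 2.21 to 2.56 for Muc4, -1.36 to -0.98 for Muc6, 0.60 to 0.91 for Muc13 and 0.83 to 1.09 for Muc20, and 3 to 6 mucin genes and 1231 to 1983 of all genes passed. Of all genes, 1026 rose and 796 fell as deposited, 1385 and 412 after rescaling to equal sums, 895 and 1118 after quantile normalization, and 593 and 1176 after centring on pan-epithelial genes, which shifted the median of all genes by -0.15. The same 5 mucin genes passed after quantile normalization and after centring. The genes used for centring include Krt19, whose values were shared with Krt13 and Krt17.

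Tumors with the same replicate number were treated as unpaired. The correlations of deviations between tumors of the same number were 0.064, -0.087, 0.063, 0.10 and 0.16. They were not set against tumors of unlike number, so they cannot show that no pairing existed. With the replicate block, 1627 genes passed, among them 6 mucin genes, since Muc13 then passed (log2 change 0.77, limma adjusted p = 0.0293). Depth is unknown, so the precision of low transcripts such as Muc20 and Muc6 cannot be given beyond the spread between tumors. Why calls were lost or gained was not tested, apart from fewer tumors or genes.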
